A study of Homo sapiens with 8 samples.

Results

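The m6A peaks annotated as 5′-UTR that lie inside a single exon block were described in U251, an established human glioblastoma cell line. They were all rows of the deposited peak list with the region 5′-UTR and 1 block, that is, peaks that are not split by an intron. There were 3852 of them among 42272 peaks (9.11%, 95% Wilson interval 8.84 to 9.39), and they carried 3181 gene names, 19.1% of the 16698 in the list. Of the 3852, 3710 were named for a protein coding gene and 43 for a long noncoding RNA, and 86 had a name that matched no RefSeq gene. The list was made by MeRIP-seq, which sets RNA pulled down with an anti-m6A antibody (m6A is N6-methyladenosine) against the input RNA. The sample labels give 8 libraries in 4 groups of 2: si-NC input, si-HNRNPC input, si-NC at 48 h and si-HNRNPC at 48 h, where si-NC is the control siRNA and si-HNRNPC targets the RNA-binding protein HNRNPC. No collection time is given for the input libraries, and the labels do not say whether the 48 h libraries are immunoprecipitates. The peak list is labelled siRNA IP (immunoprecipitate) against siRNA input, without saying whether the siRNA is si-NC or si-HNRNPC. It has a single value per peak and carries no column per library. The depth is therefore unknown, no replicate error can be given and si-HNRNPC was not compared with si-NC. Peaks and genes are not replicates, so counts, medians and intervals for counting error are given without tests. Of 7 glial and neural stem markers, all had a peak and 5 had a single-block 5′-UTR peak, beside 24.6% of all protein coding genes in the list. Only 2 of these 5 had one at an FDR below 0.001. Of the other markers, 2 of 4 for neurons, 1 of 4 for leukocytes, 3 of 3 for endothelium and 1 of 3 for epithelium had a peak. The leukocyte marker, CD68, also had a single-block 5′-UTR peak, and those of neurons, endothelium and epithelium had none. A peak is not a level of expression.

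Most m6A of mRNA is found near the stop codon and in the 3′-UTR, within a short sequence around the adenosine in which GGAC is a common form. Methylated adenosines in the 5′-UTR have been linked to initiation of translation without the usual cap-binding step, including in stressed cells. The first transcribed base can carry a related mark, m6Am, written by PCIF1, and antibodies against m6A also bind it, so a peak at a transcript start does not tell the 2 marks apart.

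To show what lies under peaks at a transcript start, the first bases of the transcript were read from RefSeq (GRCh38.p14). The table named the gene of 3110 peaks (80.7%), and 817 peaks both had a transcript start identical to the table's and covered all 50 bases after it. The 8 of these with the lowest p that held GGACT are printed with the part of the transcript around the motif, 5′ to 3′ and on the strand of the gene, with GGACT in capitals.
MAGEF1: tcgcgcgggcgcGGACTgaggctgcgcgcc
KLHL9: ggtatcctgGGACTaggcttttccggaagg
CHMP1B: gcggccgggagcGGACTtaccttaccttct
CAPS: gccccgcaggcaGGACTctgggacagacgc
ARIH1: tggaggtggcgttggGGACTgttttctctc
CEBPB: gagccgcgcacgGGACTgggaaggggaccc
SPIN4: agcgctgcgaagcccaggccgcgcGGACTc
EID2B: tattccagtctccgtagaaacgctgGGACT
The windows lie at chr3:184712023-184712052 (minus strand), chr9:21335375-21335404 (minus), chr18:11851428-11851457 (plus), chr19:5914273-5914302 (plus), chr15:72474350-72474379 (plus), chr20:50190839-50190868 (plus), chrX:63351283-63351312 (minus) and chr19:39532803-39532832 (minus), in the same order.

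The peaks over these 8 starts reached far beyond the printed 30 bases, with lengths from 594 bases in CAPS to 2452 in KLHL9. Those of MAGEF1 and CEBPB covered 100% of the transcript's span and that of EID2B 95.2%. A fold therefore belongs to the whole peak and not to the printed window. The 8 peaks differed widely in enrichment. Fold enrichment over input was 9.58 for MAGEF1, 14.0 for KLHL9, an adaptor of a cullin ubiquitin ligase, 9.07 for the ESCRT-III gene CHMP1B and 2.11 for the calcium-binding protein gene CAPS. It was 12.5 for the ubiquitin ligase gene ARIH1, 6.73 for the transcription factor gene CEBPB, 10.8 for SPIN4 and 12.3 for EID2B. CAPS was therefore the lowest of the 8 although its log10 p of -536 was the fourth lowest. Among 784 distinct starts under such peaks, the 4 letters GGAC on the transcript strand occurred within 50 bases in 158 (20.2%, 17.5 to 23.1). The share was 18.8% at 3029 starts of genes that had a 3′-UTR peak and no single-block 5′-UTR peak, and 18.9% over all 35116 entries. GGACT, which lies within the count of GGAC, occurred in 5.10% (3.77 to 6.87), against 4.32% and 4.90%. On either strand, GGACT occurred in 10.2%, 9.31% and 9.62% of these 3 sets. The first transcribed base was A in 55.5% of the starts under these peaks (52.0 to 58.9), in 46.8% of the starts without (45 to 48.6) and in 44.4% of all entries. The median GC content of the 50 bases was 66%, 68% and 60%. A match of letters is not a mapped site.

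By position, the peaks gathered at transcript starts. In all, 2751 of 3852 (71.4%, 70.0 to 72.8) touched or spanned the start of the transcript they were assigned to, against 34.9% of all peaks in the list. The share was 87.7% for the 6095 5′-UTR peaks of several blocks and 5.65% for the 12371 3′-UTR peaks of 1 block. Of the 3852 peaks, 1285 began exactly at the first base of the transcript and 1466 began upstream of it, by a median of 83 bases. The other 1101 began past the start, with quartiles of 329, 1597 and 10421 bases along the gene, introns included, and 282 of them by over 10000 bases.

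The peaks fell into 3 kinds by this position. The most frequent kind reached the start and covered under 50% of the transcript's span, with 2562 peaks (66.5%), a median length of 270 bases and a median fold of 4.72 (4.36 to 5.00). The second began past the start, with 1089 peaks (28.3%), a median length of 240 bases and a median fold of 3.49 (3.27 to 3.68). The last kind covered at least 50% of the transcript's span, with 201 peaks of 187 genes (5.22%, against 13.3% of all peaks). It had a median length of 1398 bases and a median fold of 10.9 (10 to 11.8), and 82 of these peaks covered the whole transcript. The peaks that covered most of a transcript were therefore fewer, longer and more enriched than the peaks of the other kinds. These kinds rest on the transcript that the list assigned, which can differ from the gene in length. Of 178 peaks of the last kind with a RefSeq gene length, 131 were also as long as at least 50% of that gene. In all, 152 peaks were that long, with a median fold of 11.2 against 4.36 for peaks that were not.

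**Figure D1:**
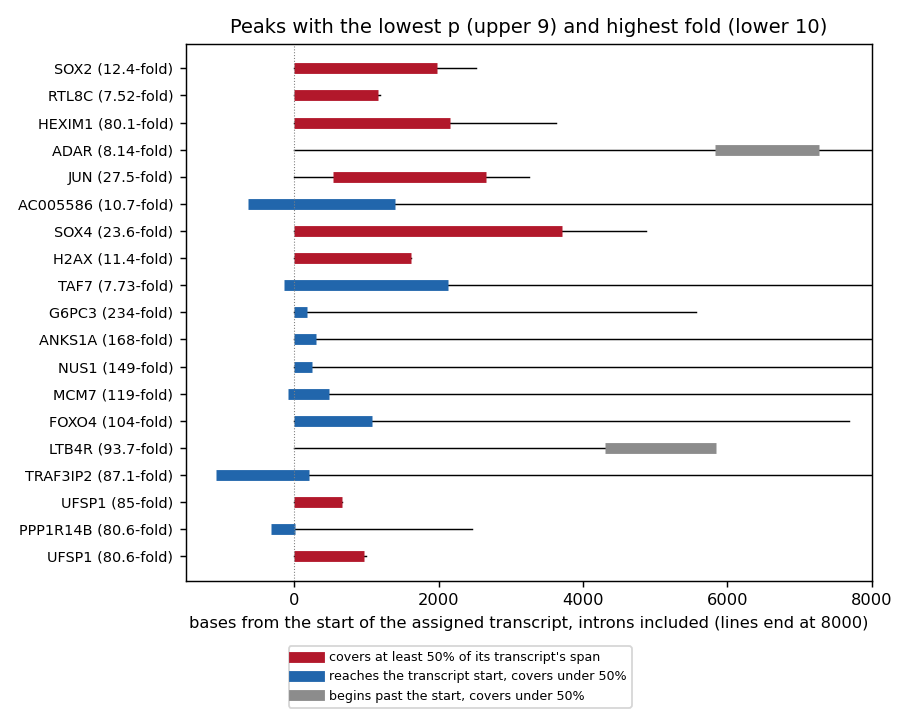
Position of 9 of the 10 peaks with the lowest p and of the 10 with the highest fold (FDR below 0.001) along their assigned transcript, in bases from its start with introns included. Thin lines are transcripts, ended at the right edge, and thick bars are peaks coloured by kind. Of these 9 peaks with the lowest p, those of SOX2, RTL8C, HEXIM1, JUN, SOX4 and H2AX cover at least 50% of the transcript.

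Of the 20 peaks with the lowest p, 11 covered at least 50% of the transcript. SOX2, a transcription factor that maintains neural stem cells, had a 1974-base peak (chromosome 3, 181711925 to 181713898) over 78.6% of its 2512-base transcript, with a fold of 12.4 and a log10 p of -12600. The transcript lies inside SOX2-OT, so RefSeq places both genes there. JUN, a subunit of AP-1, had a 2122-base peak at 27.5-fold that began 538 bases past the start, and a separate 389-base peak at the start at 4.29-fold. SOX4 had a 3704-base peak at 23.6-fold.
The same kind included genes of other functions. HEXIM1, an inhibitor of the transcription elongation kinase P-TEFb, had an 80.1-fold peak of 2157 bases over 59.5% of its transcript, where HEXIM2-AS1 also lies. H2AX, which encodes the histone variant marked at DNA breaks, had an 11.4-fold peak over 100% of 1614 bases, where DPAGT1 also lies, and RTL8C a 7.52-fold peak over 97.5% of 1192 bases. The region 5′-UTR thus also stood on peaks that reach along most of a transcript.

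Among the 10 lowest p, 3 peaks did not cover their transcript. ADAR, which edits adenosine to inosine in double-stranded RNA, had a 1440-base peak at 8.14-fold that began 5830 bases past the start. TAF7, a TFIID subunit, had a 7.73-fold peak from base -139 to base 2125 relative to the start of a transcript of 60421 bases. The peak listed under AC005586, at 10.7-fold, lies where RefSeq places REPIN1 and REPIN1-AS1.

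The highest folds at an FDR below 0.001 stood mainly on peaks that reached the start. G6PC3, a glucose-6-phosphatase, had the highest of all, 234-fold over 181 bases (chromosome 17, 44070735 to 44070915) that began at the first base of the transcript. It was followed by the adaptor gene ANKS1A at 168-fold over 300 bases and by NUS1, a subunit of the cis-prenyltransferase of dolichol synthesis, at 149-fold over 241 bases. MCM7, a subunit of the replicative helicase, had 119-fold over 568 bases, where AP4M1 also lies. FOXO4, a forkhead factor phosphorylated by AKT, had 104-fold over 1075 bases. A leukotriene receptor gene, LTB4R, was an exception, with 93.7-fold over 1529 bases that began 4309 bases past the start of a 4509-base transcript and ran beyond its end. TRAF3IP2, an adaptor of interleukin-17 signalling, had 87.1-fold where TRAF3IP2-AS1 also lies. UFSP1 had 85.0-fold and 80.6-fold in a pair of peaks over nearly the whole of a 657-base and a 995-base transcript. PPP1R14B had 80.6-fold in a peak from base -319 to base 4 relative to the start, where PPP1R14B-AS1 also lies. These 10 had log10 p between -27.0 and -263, far from the lowest p of the list.

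At the other end, the lowest folds at an FDR below 0.001 were 1.11 and 1.17 in CCDC51, where TMA7 also lies, 1.20 in NAA38, 1.22 in the tubulin gene TUBB4B and 1.23 in EMC3. Their lengths were 61 to 180 bases. The shortest peaks at that FDR were those of CNPY2 (59 bases, 1.28-fold), PRCC (60 bases, 3.35-fold, in the RefSeq span of HDGF) and STARD7 (60 bases, 2.11-fold). The longest were in RN7SKP63, with 6105 bases from base -5817 relative to the start, CHRNG (5388 bases) and RIMBP3 (3861 bases). RefSeq also places RIMBP3B under the RN7SKP63 peak and TIGD1 under the CHRNG peak.

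Length and fold moved together. The median length was 270 bases (270 to 271, quartiles 180 and 541), with a range from 58 to 9090, and 3065 of the lengths (79.6%) lay within 1 base of a multiple of 30. The median fold was 4.56 (4.36 to 4.81, quartiles 2.45 and 8.71), with a range from 1.1 to 234. An FDR below 0.001 was listed for 2165 peaks (56.2%, 54.6 to 57.8), against 62.0% of all peaks, and one below 0.05 for 3129 (81.2% against 81.6%). A fold of at least 2 was listed for 3226 (83.7% against 86.9%). Across these 3852 peaks, which share libraries, Spearman's rho between length and fold was 0.60.
The 781 peaks of up to 150 bases had a median fold of 2.31, and 18.3% had an FDR below 0.001. At 150 to 300 bases the median of 1356 peaks was 3.16 (49.9%), and at 300 to 500 bases that of 634 peaks was 5.13 (70.2%). At 500 to 1000 bases the median of 623 peaks was 7.63 (79.5%), and at 1000 to 2000 bases that of 349 was 10.1 (89.4%). The 109 longer peaks had 11.4 (86.2%). Short peaks were thus the least enriched, although single short peaks held the highest folds of all.

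**Figure D2:**
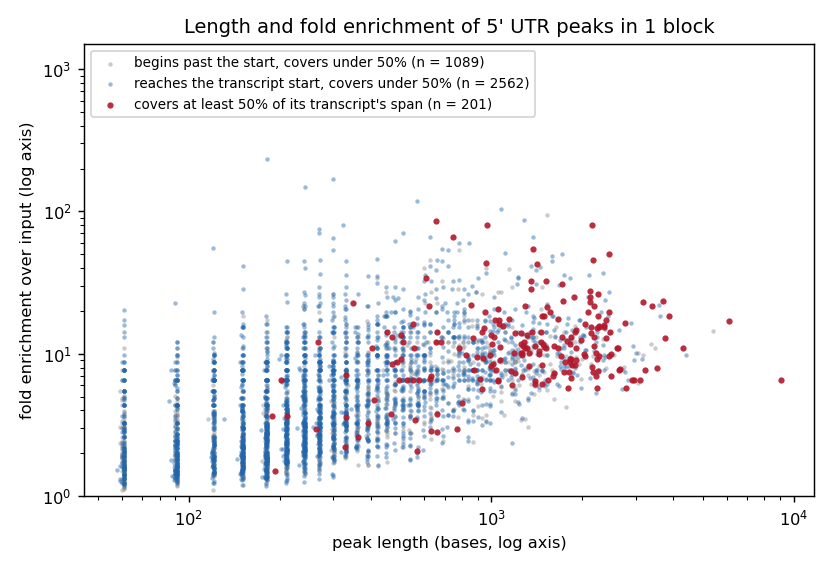
Fold enrichment over input against length in bases, both on log axes, for the 3852 single-block 5′-UTR peaks, 1 point each, coloured by kind. The 201 peaks that cover at least 50% of their transcript lie mostly at the long end, around their median of 1398 bases and 10.9-fold.

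Set beside the nearest groups of the list, the single-block peaks were the shortest. The 6095 5′-UTR peaks of several blocks had a median of 570 bases and 6.49-fold (6.17 to 6.54), and 70.2% had an FDR below 0.001. The 3′-UTR peaks of 1 block had 330 bases and 4.17-fold (4.05 to 4.32), and 63.8%. Just outside the rule, the 3111 5′-UTR peaks of 2 blocks had 389 bases and 5.45-fold. In each of the 6 bands of length, the single-block 5′-UTR peaks had a higher median than the 3′-UTR peaks of 1 block, for example 2.31 against 1.96 up to 150 bases, 5.13 against 4.15 at 300 to 500 bases and 11.4 against 10.3 above 2000 bases. The share with an FDR below 0.001 went the other way in the bands up to 1000 bases. It was 18.3% against 19.2% up to 150 bases and 70.2% against 76.1% at 300 to 500 bases. Above 1000 bases it was higher for the single-block 5′-UTR peaks, 89.4% against 87.7% at 1000 to 2000 bases. Without the repeated fold values described below, the medians over all lengths were 3.42-fold and 3.35-fold. These differences were not tested.

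**Figure D3:**
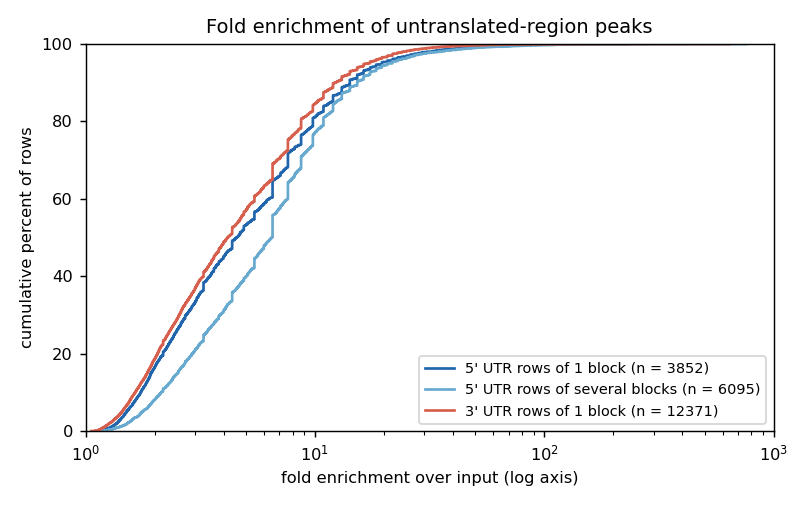
Cumulative share of peaks (percent) by fold enrichment over input (log axis) for single-block 5′-UTR peaks, 5′-UTR peaks of several blocks and 3′-UTR peaks of 1 block. The medians are 4.56, 6.49 and 4.17.

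A part of the folds took a few repeated values. Whole multiples of 1.09, from 2 to 20 times, made up 1042 of the 3852 folds (27.1%, 25.7 to 28.5). The value 6.54 stood on 168 peaks, 99 of them with the same log10 p of -1.31, and 7.63 stood on 139 peaks, 86 of them with -1.57. Peaks with such values had a median fold of 7.63 against 3.42 for the others, and an FDR below 0.001 in 34.6% against 64.2%. A high fold was therefore often listed with a weak p. Some folds named in the gene lists below, such as 9.80 in EPHA4 and 10.9 in SESN1, are such values. The shares of such values were 21.1% to 30.3% in the whole list, the 5′-UTR peaks of several blocks and the 3′-UTR peaks of 1 block.

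Not every peak is a separate place or a certain gene. After peaks of a strand that share bases were merged, 3614 regions remained, and 1008 peaks (26.2%) shared bases with some other row of the list. In 439 (11.4%) the other row was a 5′-UTR peak of several blocks of the same gene. The most peaks under a name were 7 for ZC3H11A, a zinc finger protein of mRNA export, 6 for ARL6IP4 and 6 for OAZ3. All 7 of ZC3H11A, with folds from 1.88 to 13.0, lie where RefSeq also places ZBED6. Of those named OAZ3, the peak from 151762806 to 151762926 on chromosome 1 lies on MRPL9. In all, 446 peaks (11.6%) lay in the span of at least 2 protein coding RefSeq genes, and 328 of 3710 peaks named for a protein coding gene (8.84%) lay off the RefSeq gene of that name. A further 97 of the 3651 peaks that covered under 50% (2.66%) had their middle in the last 10% of the transcript, such as FOSL1 (bases 7142 to 8339 of 8340, 4.67-fold) and PIK3CA (50266 to 51046 of 50775, 9.67-fold). The region named for these is that of the list.

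Of the 3181 genes, 2650 had 1 such peak, 429 had 2 and 102 had at least 3, and for 495 it was the gene's only peak. A 3′-UTR peak was also present in 2100 (66.0%, 64.4 to 67.6), against 61.4% of all genes in the list. For genes with a 5′-UTR peak of several blocks the share was 62.7%. Among protein coding genes the order was the reverse, with 2075 of 3067 (67.7%) against 75.6% of all. A gene without a single-block 5′-UTR peak is in the list only through some other peak, and 78.2% of such protein coding genes had a 3′-UTR peak. The shares are therefore not on equal terms. Genes with a single-block 5′-UTR peak also had more rows, a mean of 3.51 against 2.53 over all genes. By kind, a 3′-UTR peak was present in 1534 of 2269 genes (67.6%) with a peak at the start, in 675 of 941 (71.7%) with a peak past it and in 47 of 187 (25.1%) with a peak over at least 50% of the transcript. The share was lowest for the last kind, in which 82 of 201 peaks covered the whole listed transcript. Whether the low share follows from how this kind is defined was not tested, and it is not read as a trait of the genes.

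Within the 2100 genes, the highest 5′-UTR and 3′-UTR folds of a gene were compared. The median log2 difference, 5′ minus 3′, was -0.27 (-0.37 to -0.20, quartiles -1.32 and 0.73), with medians of 4.90-fold and 6.54-fold. The 3′-UTR peaks here had any number of blocks. With 3′-UTR peaks of 1 block alone the difference was -0.0213 (-0.10 to 0.04), and with medians over all peaks of a gene at each end it was -0.0618 (-0.13 to 0.0038), so both intervals held 0. The 5′-UTR peak was higher in 874 genes, the 3′-UTR peak in 1211, and both were equal in 15. The 3′-UTR peaks were also longer, 565.5 against 271 bases. Where the highest peaks of both ends had an FDR below 0.001 (1017 genes) the median was -0.14. In the 47 genes with a peak over at least 50% of the transcript it was 0.90 (0.16 to 1.38), and the 5′-UTR peak was higher in 33. Here the 5′-UTR peaks were the longer ones, with a median of 1398 against 417 bases. In such genes the 2 peaks can share bases, as in HEXIM1, so they are not always separate ends. Across the 2100 genes the log2 folds of the 2 ends had a Pearson's r of 0.10 and a Spearman's rho of 0.12, as a description over genes of the same libraries.

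Single genes lay far from this median on both sides. SYMPK, a scaffold of the cleavage and polyadenylation machinery, had 1.85-fold in the 5′-UTR and 233-fold in the 3′-UTR, and the zinc finger gene ZNF205 had 2.49-fold and 282-fold. FEM1A had 2.09-fold and 64.3-fold, the ETS repressor gene ERF 1.78-fold and 39.5-fold, and SRF, the serum response factor, 2.56-fold and 38.1-fold. The 3′ end was the enriched end in these 5. In the opposite direction, G6PC3 had 234-fold and 1.90-fold, NUS1 149-fold and 1.93-fold, and FOXO4 104-fold and 3.09-fold. HEXIM1 had 80.1-fold and 2.16-fold, with the 2 peaks sharing bases, and RARRES2, which encodes chemerin, 45.2-fold and 1.38-fold.

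**Figure D4:**
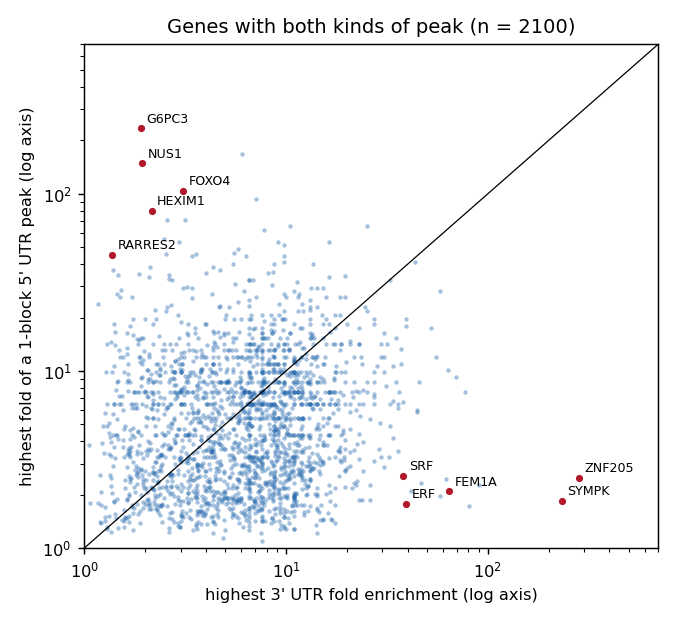
Highest fold enrichment of a single-block 5′-UTR peak against the highest of a 3′-UTR peak in the same gene (both log axes), 1 point for each of 2100 genes, with the line of equal folds. The 3′-UTR fold is the higher in 1211 genes.

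Gene lists were then described by how many of their genes in the peak list had a single-block 5′-UTR peak, beside 24.6% of all 12453 protein coding genes. Over 14 lists together, 136 of 422 genes had one (32.2%), and their median folds are to be read beside the 4.56 of all 3852 peaks. These medians include peaks with a weak p, so for some lists the median at an FDR below 0.001 is also given. For all single-block 5′-UTR peaks it was 5.45. The shares count peaks at any FDR. Genes with one at an FDR below 0.001 ran from 3 of 11 for the cell cycle to 7 of 8 for frizzled, ephrin and Notch receptors. For immediate early genes they were 8 of 14. The share was highest for immediate early genes and the MYC family, genes quickly induced by growth factors, with 14 of 27 (51.9%) and a median fold of 4.19. JUND, an AP-1 subunit, had 8.71-fold over its whole listed transcript, IER5 9.25-fold and FOSL1 4.67-fold. Transcription factors of neural stem cells and glioma followed with 14 of 32 (43.8%) and a median fold of 7.63, or 6.5 at an FDR below 0.001. POU3F2 stood out there with 35.6-fold over 2098 bases from the start.

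Lists of stress and translation had median folds below that of all single-block 5′-UTR peaks. Heat shock and stress-translated mRNAs had 10 of 23 (43.5%) and a median of 2.95-fold, with 7.52-fold in PPP1R15B, a phosphatase subunit acting on eIF2, 5.82-fold in ATF5, 2.95-fold in the small heat shock protein gene HSPB1 and 2.17-fold in ATF4. Translation initiation factors had 12 of 31 (38.7%) and 2.77-fold. EIF3C had 17.4-fold at the start (log10 p of -4.15), and EIF2AK1, an eIF2 kinase, 2.77-fold (-9.67). The 12.5-fold peak named EIF4A2 lies on no RefSeq gene and the 8.85-fold peak named EIF3L on ANKRD54.

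Receptors of the frizzled, ephrin and Notch families had 8 of 20 (40.0%) and a median of 8.71-fold, or 7.01-fold at an FDR below 0.001. SMO, the transducer of Hedgehog signals, had 46.3-fold, FZD7 12.9-fold, EPHA4 9.80-fold and FZD2 7.01-fold. Their log10 p were -27.3, -466, -4.44 and -107. SMAD, TGF-β and BMP signalling had 10 of 29 (34.5%) and 7.41-fold, with 38.7-fold in the inhibitor SMAD6, 10.3-fold in SMAD5, where SMAD5-AS1 also lies, and 7.46-fold in the ligand TGFB1. The 12.5-fold peak named SMAD3 lies on SMAD3-DT. MAP kinase cascades had 17 of 55 (30.9%) and 4.33-fold, or 6.48-fold at an FDR below 0.001. The fold was 29.4 in MAP3K9, where MAP3K9-DT also lies, 15.3 in MAP2K5 and 13.5 in the inhibitor SPRY4. Their log10 p were -7.47, -7.65 and -223. DUSP6, an ERK phosphatase, had 16.3-fold in a peak from base -770 to base 239 relative to the start and 3.42-fold in a second peak from base 0 to base 239, both with a log10 p of -4.73. Protein kinase A, AKT and mTOR signalling had 7 of 30 (23.3%) and 7.35-fold. FOXO4 was the highest, then SESN1 at 10.9-fold (log10 p of -5.77) and IRS1 at 8.52-fold (-101).

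The remaining lists had median folds of 3.26 to 4.36. At an FDR below 0.001 their medians ran from 3.055 for mitochondrial electron transport to 7.46 for glioma drivers. Glioma drivers had 9 of 29 (31.0%), with 13.1-fold in the repressor CIC (log10 p of -8.38) and 12-fold under NF1 where EVI2A lies (-12.2). Cell cycle genes had 11 of 34 (32.4%), 3 of them at an FDR below 0.001, and, beside MCM7, 3.49-fold in the proliferation marker gene MKI67. The 3.02-fold peak named CDK4 lies on MARCHF9. HNRNP genes had 7 of 25 (28.0%), with 9.87-fold in HNRNPA0, 6.17-fold in HNRNPM and 6.15-fold in HNRNPDL. The m6A machinery had 5 of 22 (22.7%), with 62.1-fold in PCIF1, 11.3-fold over 2934 bases in RBM15, a subunit of the m6A writer complex, 3.13-fold in RBM15B and 1.33-fold in the reader HNRNPA2B1. The PCIF1 peak runs from base -467 to base 13 relative to the start and so lies almost wholly upstream. Nuclear genes of mitochondrial electron transport had 10 of 44 (22.7%), with 3.07-fold in NDUFB11 and, where GABPA also lies, 3.04-fold in ATP5PF. The 25.1-fold peak named ATP5MC3 lies on RPS15AP14 and the 8.71-fold peak named NDUFB2 on NDUFB2-AS1. IL-1, Toll receptor and NF-κB signalling had 5 of 31 (16.1%), with 7.90-fold in TLR3, 4.46-fold in the NF-κB subunit RELA and 3.70-fold in its inhibitor NFKBIA.
HNRNPC, IRAK1 and PDGFA had no single-block 5′-UTR peak, and each had 1 peak in the list, in the 3′-UTR. MAP3K14 had 8 peaks and likewise none of this kind.

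**Figure D5:**
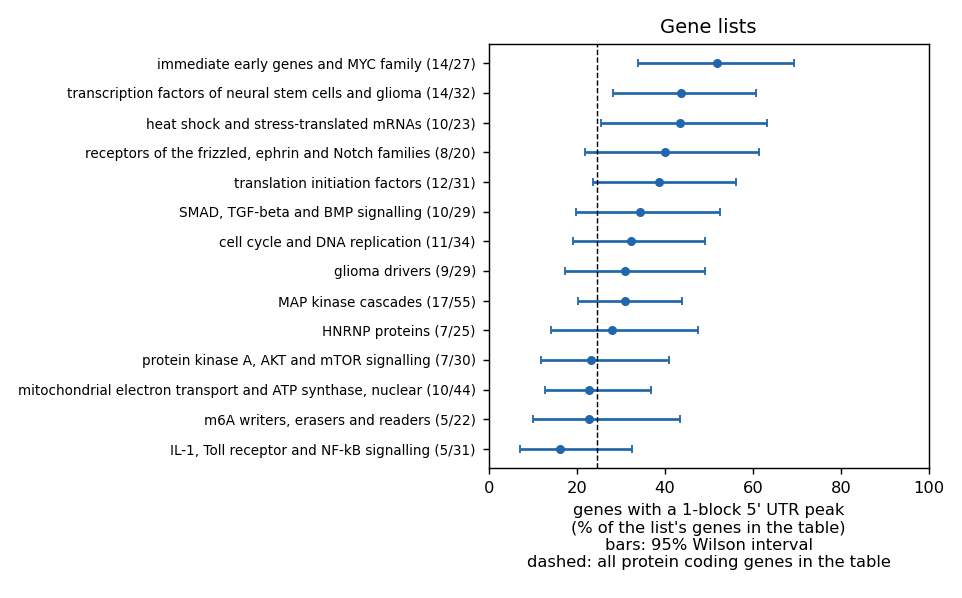
Share of each list's genes in the peak list that have a single-block 5′-UTR peak at any FDR (percent), with 95% Wilson intervals for counting error. The share of all protein coding genes (24.6%) is a dashed line. The counts behind each share stand beside its name, from 14 of 27 for immediate early genes to 5 of 31 for IL-1, Toll receptor and NF-κB signalling.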

How the data were processed

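The sample labels describe MeRIP-seq of U251 cells, and only the peak list was analysed. Read trimming with fastp and alignment with HISAT2 are named in the submitters' notes, without versions. The peak caller, its scaling to depth, the genome build, the annotation and whether replicates were pooled were not given in the sources used here, and differing depth or pooling could change the folds. The deposited fold enrichment is a linear ratio, immunoprecipitate over input, computed by the authors for each peak. The p-value and FDR were deposited as p and as log10, and every p is at most 0.05, so weaker regions are absent from all counts.

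Distances, coverage of the transcript, shared bases and counts per gene were computed from the deposited positions, blocks and transcript bounds. Names were brought to current symbols through a RefSeq table of GRCh38.p14 (769 rows renamed), which also gave the overlapping genes and the start sequences. The transcript start of 1187 peaks was identical to a start of the table. Shares have Wilson intervals and medians order-statistic intervals at 95%, for counting error only, and both were tested on simulated data. No test was run, because the list has no value per library.

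The peaks and gene lists were chosen with earlier results of these data known. Named genes are those of the 10 lowest p, the 10 highest and 5 lowest folds, the 3 longest and 3 shortest peaks (all but the first at FDR below 0.001), the 3 with the most peaks, the 5 at each end of the within-gene difference and, of each list, at most 4 with the highest fold at an FDR below 0.001, plus HNRNPC, IRAK1, PDGFA and MAP3K14. MRPL9, HDGF, ANKRD54, ZBED6 and other overlapping genes were named after their positions were seen. A pair of the genes under this rule is not reported here. Alternatives covered the FDR, p and fold minimum, length, rows per gene, start distance and motif. Python 3.11.15, pandas 2.3.3, NumPy 2.4.6, SciPy 1.17.1 and matplotlib 3.10.9 were used.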

Additional observations from a re-analysis of the deposited data

How the results depend on the processing

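No paired analysis was possible because each peak has 1 value and none per library, and no replicate could be left out. No median turned sign, but the interval of the within-gene difference reached past 0 in 2 alternatives. Of 70 alternative values of the main results, 38 moved beyond the interval of the main value, and the other 32 stayed within it or, for the 136 listed genes with a peak, at 94 to 131, within 1.5 times. At an FDR below 0.001, single-block peaks were 33.6% of 5′-UTR peaks (38.7% in all), with a median of 391 bases and 5.45-fold, 58.4% of genes had a 3′-UTR peak, the within-gene log2 difference, with the minimum set before the highest peak of a gene was taken, was -0.10 and 76.0% touched the start. At an FDR below 0.05 the share was 37.6%, the length 301 bases, the genes 63.2% and the start 72.9%. At a fold of at least 2 they were 36.5%, 329 bases, 5.86-fold, 60.1% and 73.7%. With 1 row per gene and region they were 37.0%, 300 bases, 5.08-fold and, at the start, 74.9%. Up to 1000 bases the fold was 3.92, and at a log10 p of at most -10 it was 6.35. Counting only 3′-UTR peaks of 1 block gave 49.5% of genes and a difference of -0.0213 (-0.10 to 0.04), and medians over rows gave -0.0618 (-0.13 to 0.0038). Starts within 100, 500 or 1000 bases gave 74.7%, 80.6% and 83.9%. GGACT in place of GGAC gave 5.10%. GGAC in the whole 300-base entry, of which 250 bases lie before the transcript start, gave 70.8%. Chosen after seeing the data, leaving out repeated folds gave 39.8%, 269 bases, 3.42-fold, 62.7%, -0.40 and 68.6%, and leaving out peaks over at least 50% of the transcript gave 37.5%, 268 bases and 68.5% of genes.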
